A study of Mus musculus with 36 samples.

Results

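The 10 genes described here belong to the imprinted growth network: H19, Igf2, Igf2r, Cdkn1c, Dlk1, Meg3, Peg3, Plagl1, Mest and Grb10. They were taken from the table of read counts per gene by their symbols, and all 10 had a row among its 39017 genes. H19 was selected on its measured level: an earlier reading of these libraries had shown it higher beside clones E, H and V than beside clones K, M, N and T, so its levels in the clonal co-cultures are described below without a test. RNA was sequenced from C57BL/6 mouse pancreatic fibroblasts in 9 groups of 4 libraries. Mono-culture fibroblasts grew alone, and the other 8 groups spent 48 h in direct contact with a GFP-expressing tumour line, which was Clone E, Clone H, Clone K, Clone M, Clone N, Clone T, Clone V or KPC1, and were then sorted away from it by flow cytometry on GFP. The labels give the first 7 lines as sub-clones of a tumour and do not explain the name KPC1. They do not say whether the 4 libraries of a group came from separate cultures or animals, so p-values measure the spread between these libraries, which may be technical. The comparisons asked whether direct contact with tumour cells changed the fibroblast transcriptome and whether the clones differed in this. The mono-culture libraries are numbered 33 to 36, after all others, so any effect of that order cannot be told apart from co-culture. The same holds for any effect of the sort, if mono-culture was left unsorted.

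Imprinted genes are transcribed mainly from the allele inherited from a single parent, and many of them set how much a fetus and its tissues grow. Genes that promote growth tend to be expressed from the paternal allele and genes that restrain it from the maternal allele. Igf2, Dlk1, Peg3, Plagl1 and Mest are paternally expressed in most tissues, and H19, Igf2r, Cdkn1c, Meg3 and, outside the brain, Grb10 are maternally expressed. Several of these genes are highly expressed in the fetus, fall after birth and keep some expression in mesenchymal cells. The libraries measured total RNA of each gene and did not separate the alleles.

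By the GENCODE M21 annotation of GRCm38, the mm10 build, H19 lies at chr7:142575529-142578143 and Igf2 at chr7:142650766-142666816, both on the minus strand and 72.6 kb apart, with Cdkn1c on the same strand at chr7:143458339-143461050. Dlk1 at chr12:109452823-109463336 and Meg3 at chr12:109541001-109571726 are both on the plus strand, with 77.7 kb between them. Peg3 (chr7:6703892-6730431), Plagl1 (chr10:13060504-13131694), Mest (chr6:30723547-30748465), Grb10 (chr11:11930508-12038683) and Igf2r (chr17:12682406-12769664) lie apart from these clusters. H19 and Meg3 are annotated as long noncoding RNAs and the other 8 as protein coding. Exons of Igf2 overlap those of the antisense gene Igf2os and, on the same strand, Gm49394. Exons of Mest overlap those of the antisense gene Copg2, and exons of Cdkn1c those of the antisense gene Gm44732. Antisense genes also overlap exons of H19 (Gm27483 and Gm27786), Meg3 (Gm26906) and Plagl1 (Gm27741). The library kit kept strand, but whether the counting used it is not stated. How reads over overlapping genes were handled is not stated either, so reads of these partners may be included, or shared reads left out.

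MicroRNA genes lie on the same strand within H19, Igf2, Mest and Meg3, and those of the first 3 are shown. Within Meg3, Mir1906-1 and Mir770 overlap exons. miR-675 lies in an exon of 3 of the 7 annotated H19 transcripts, miR-483 within Igf2 and miR-335 within Mest, the latter pair outside every annotated exon of the host. Mature microRNAs carry no poly(A) tail and were not measured by these libraries, so the RefSeq sequences are shown only to identify what the host genes carry. Capitals mark the seed, bases 2 to 8, and no seed is shared between the 6 arms.
miR-675-5p: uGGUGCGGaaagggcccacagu
miR-675-3p: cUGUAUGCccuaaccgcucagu
miR-483-5p: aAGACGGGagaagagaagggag
miR-483-3p: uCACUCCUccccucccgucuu
miR-335-5p: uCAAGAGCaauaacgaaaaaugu
miR-335-3p: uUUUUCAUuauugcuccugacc

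Library totals ranged from 12532122 to 21985538 counts. Levels are given as CPM, read counts put on a common library size, after TMM scaling, which corrects library totals for differences in composition. Levels of different genes are compared only as the deposited RPKM, which also divides by gene length. Per length, Igf2r and Grb10 had the highest medians over the 36 libraries, at 45.2 and 39.1 RPKM. The medians of Dlk1 and Plagl1 were 9.23 and 3.51 RPKM. H19, with a median of 2.44 RPKM, had the widest range, from 0.125 to 75.9 RPKM. Igf2 was low, at 0.0118 to 1.41 RPKM, and Meg3 was the lowest, at 0.00327 to 0.112 RPKM and 1 to 28 reads per library. All 10 genes passed the filter on low counts, which kept 14439 genes.

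More of these genes were lower in co-culture than were higher. Cdkn1c, Plagl1 and Mest fell beside all 8 tumour lines, Dlk1 beside 6, Meg3 beside 3 and Peg3 beside 2. Igf2 rose beside clones E, N and V, and H19, tested only with KPC1, was higher there. Igf2r and Grb10 passed the test against mono-culture beside none of the 8. A gene was called where the quasi-likelihood test of edgeR gave an adjusted p under 0.05 over all 14439 genes.

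Counts of called genes leave out H19 and so are out of 9. They have to be read against the share of all genes called. With clone E, 1 of 9 was higher and 3 lower, where 32% of all genes were called, 16.5% higher and 15.5% lower. With clone H, 0 were higher and 5 lower, against 54.2% of all genes, 27.8% higher and 26.4% lower. With clone K, 0 were higher and 3 lower, against 19.1%, 10.4% higher and 8.69% lower. These 3 were Cdkn1c, Plagl1 and Mest. With clone M, 0 were higher and 4 lower, against 23% of all genes, 12.2% higher and 10.8% lower. With clone N, 1 was higher and 4 lower, against 39.0%, 19.7% higher and 19.2% lower. Beside clone T, 0 were higher and 6 lower, where 49.8% of all genes were called, 25% higher and 24.7% lower. Beside clones H, K, M and T and KPC1 only falls were called among the 9, while over all genes rises and falls were about even. H19, outside the 9, was called higher with KPC1. Beside clone V, 1 was higher and 5 lower, against 58.3%, 29.4% higher and 28.9% lower. With KPC1, 0 were higher and 5 lower, against 59.0%, 30.5% higher and 28.5% lower. For the mean of the 7 clones, 1 was higher and 5 were lower, against 49.2% of all genes, 24.3% higher and 24.9% lower. The shares called were near the background for clones H and V and for KPC1 and somewhat above it for the others. Out of 9 genes such differences rest on few genes, and they were not tested. For the mean of the clones the median log2 fold change of the 9 genes was −1.16, beside 0.00578 over all genes tested. The 9 genes were chosen with earlier results of these data known, so their counts and median only describe them.

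**Figure D1:**
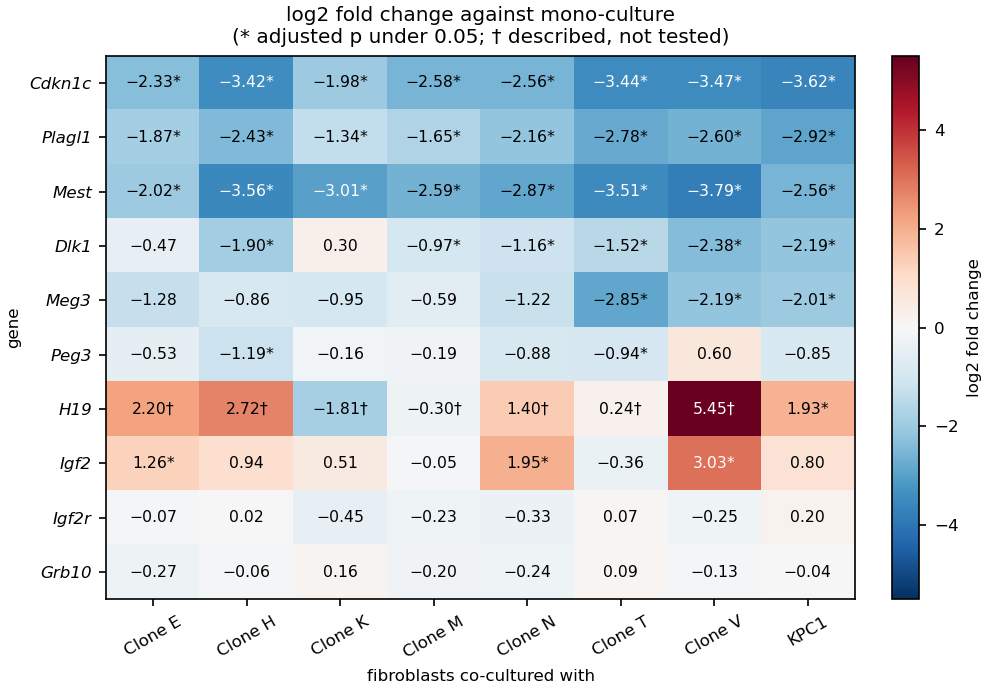
Log2 fold change of each gene (rows) in each co-culture (columns) against mono-culture, from the edgeR fit to 36 libraries; the colour scale runs from blue (lower) to red (higher), asterisks mark adjusted p under 0.05 and daggers mark H19 values that are described without a test. Cdkn1c, Plagl1 and Mest are blue in all 8 columns, with values from −1.34 to −3.79, and the highest value is that of H19 with clone V, 5.45.

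Cdkn1c, which encodes a cyclin-dependent kinase inhibitor that holds cells in G1, was lower in all co-culture libraries. The mono-culture libraries had 20.1, 20.5, 16.5 and 20.02 CPM, and the highest co-culture library, from clone K, had 6.84 CPM. KPC1 gave the lowest mean, 1.56 ± 0.186 CPM (SD, n = 4), and clone K the highest of the co-cultures, 4.88 ± 1.45 CPM. No co-culture range overlapped that of mono-culture. The log2 fold change ran from −1.98 (SE 0.258, edgeR adjusted p = 1.5e-06) with clone K to −3.62 (SE 0.286, adjusted p = 2.3e-11) with KPC1. The clones differed among themselves (edgeR F-test over the 7 clones, adjusted p = 1.4e-05), with means of 1.74 to 1.78 CPM beside clones V, T and H and of 3.24 to 4.88 CPM beside clones M, N, E and K. Cdkn1c was lower with KPC1 than with the mean of the clones by 0.80 on the log2 scale (SE 0.229, adjusted p = 6.0e-03).

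Plagl1, a zinc finger transcription factor that restrains proliferation in culture and binds within other imprinted loci, had the same groups at either end of its range. Its mono-culture libraries had 85.2, 98.6, 69.1 and 89.6 CPM. The co-culture libraries had between 8.16 CPM, with KPC1, and 43.3 CPM, in replicate 2 of clone M, so every one of them lay below every mono-culture library. The means were 33.8 ± 7.15 CPM with clone K, 27.3 ± 10.7 CPM with clone M and 23.4 ± 3.01 CPM with clone E (SD, n = 4), and 11.3 ± 3.41 CPM with KPC1 at the low end. The fall was smallest with clone K, at −1.34 on the log2 scale (SE 0.23, edgeR adjusted p = 7.5e-05), and largest with KPC1, at −2.92 (SE 0.247, adjusted p = 9.5e-11). The F-test among the 7 clones gave an adjusted p of 1.3e-05, and KPC1 was below the mean of the clones by −0.80 (SE 0.192, adjusted p = 1.4e-03).

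Mest, which encodes a hydrolase-like protein of the endoplasmic reticulum and is also known as Peg1, was the third gene lower beside every line. Mono-culture libraries had 18.8, 13.8, 8.14 and 11.8 CPM, and co-culture libraries 0.538 to 4.79 CPM, again without overlap. The order of the groups was not that of Cdkn1c and Plagl1: clone E kept the most Mest RNA, 3.25 ± 1.25 CPM, KPC1 came next at 2.21 ± 1.10 CPM, and clone V had the least, 0.935 ± 0.455 CPM (SD, n = 4). The log2 fold change was −2.02 with clone E (SE 0.351, edgeR adjusted p = 5.2e-05) and −3.79 with clone V (SE 0.391, adjusted p = 2.2e-09). Mest differed among the clones (adjusted p = 9.9e-04), while the difference between KPC1 and the mean of the clones was not called (0.48, SE 0.273, adjusted p = 0.16) and passed without replicate 2 of KPC1 (0.76, adjusted p = 0.0335).

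Across the 36 libraries, log2 CPM of Cdkn1c went with that of Plagl1 (Pearson r = 0.892) and of Mest (r = 0.823), and Dlk1 went with Cdkn1c (r = 0.757) and Plagl1 (r = 0.748). These values describe the libraries, which share the 9 groups and above all the step between mono-culture and co-culture. RefSeq promoter windows, the 250 bases before an annotated start, were at hand for 8 of the 10 genes, with 15 windows in all. CG dinucleotides were counted in them, since methylation of CG is the mark by which imprints are kept. The Plagl1 window held 19 CG and the richer Mest windows, which overlap, 14 each, against a median of 6 over 32851 windows. Of all windows, 19.7% held at least 19 and 29.4% at least 14. The richest of the 15 windows were of genes not called against mono-culture, Grb10 at 40 CG, with 8 in its other window, and Igf2r at 27. Igf2, which rose beside clones E, N and V, held 22 in its richest window and 1, 6 and 10 in its others. Dlk1 and Peg3, which fell beside some lines, held 8 each. The Meg3 windows held 10 and 0, and the remaining Mest window 7. The Plagl1 window and the first of the richer Mest windows are printed because the genes fell together, with CG in capitals, 5′ to 3′ on the plus strand of GRCm38.p6. No methylation was measured here.
Plagl1 chr10:13090582-13090831: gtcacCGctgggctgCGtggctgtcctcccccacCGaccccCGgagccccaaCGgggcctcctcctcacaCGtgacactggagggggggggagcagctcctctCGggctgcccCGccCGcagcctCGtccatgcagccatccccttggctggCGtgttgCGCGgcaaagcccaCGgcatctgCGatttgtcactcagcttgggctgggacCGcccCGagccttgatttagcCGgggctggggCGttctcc
Mest chr6:30737800-30738049: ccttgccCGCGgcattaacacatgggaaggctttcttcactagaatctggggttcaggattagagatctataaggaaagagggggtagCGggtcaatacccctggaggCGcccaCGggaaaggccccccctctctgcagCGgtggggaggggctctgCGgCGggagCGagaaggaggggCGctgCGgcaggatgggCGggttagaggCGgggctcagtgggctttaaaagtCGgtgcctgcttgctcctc

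**Figure D2:**
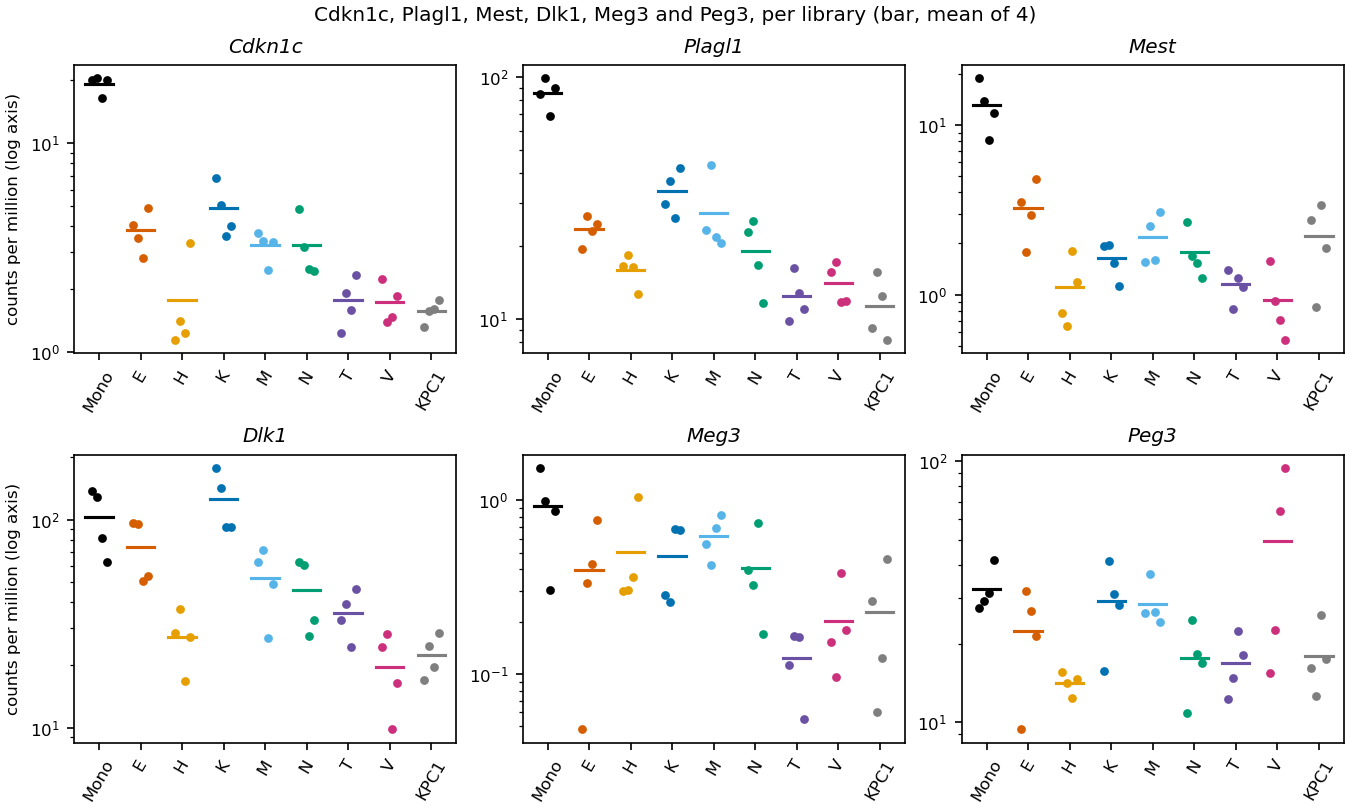
CPM (log axis) of Cdkn1c, Plagl1, Mest, Dlk1, Meg3 and Peg3 in each of the 36 libraries; each point is a library, each bar the mean of 4 libraries, and Mono stands for mono-culture. For Cdkn1c, Plagl1 and Mest all mono-culture points lie above all others, whereas Dlk1 with clone K and Peg3 with clone V reach or pass the mono-culture points.

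Dlk1, a transmembrane protein with EGF-like repeats that keeps preadipocytes undifferentiated, had a wider spread between co-cultures, with a ratio of 6.40 between the highest group mean, with clone K, and the lowest, with clone V. The mono-culture libraries were themselves spread, at 137, 129, 81.3 and 62.4 CPM. Clone K libraries had 178, 142, 92.1 and 91.8 CPM and clone E libraries 96.7, 95.2, 50.5 and 53.7 CPM, so both overlapped mono-culture. With clone V the libraries had 24.4, 28.1, 9.81 and 16.3 CPM, and the ranges of clones H, T and V and of KPC1 all lay below that of mono-culture.

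By the edgeR test, Dlk1 was lower with clones H, M, N, T and V and with KPC1. The strongest fall was −2.38 on the log2 scale with clone V (SE 0.361, adjusted p = 2.1e-06), followed by −2.19 with KPC1 (SE 0.358, adjusted p = 6.2e-06) and −1.90 with clone H (SE 0.353, adjusted p = 4.5e-05). With clone K the difference was 0.30 (SE 0.337, adjusted p = 0.59) and with clone E −0.47 (SE 0.339, adjusted p = 0.32). The call for clone M (−0.97, SE 0.343, adjusted p = 0.04) was lost without replicate 3 or 4 of clone M or replicate 1 or 2 of mono-culture, at adjusted p of 0.158, 0.0838, 0.124 and 0.121, and without the filter on low counts, at 0.0857. The clones differed (F-test, adjusted p = 9.7e-07), and KPC1 was lower than their mean (−1.03, SE 0.287, adjusted p = 4.9e-03).

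Meg3, the maternally expressed noncoding RNA downstream of Dlk1, was near the limit of detection. Its reads in mono-culture numbered 28, 18, 4 and 19, and in co-culture 1 to 24. It was lower with clone T, where the 4 libraries held 2, 3, 3 and 1 reads, with clone V, at 3, 2, 7 and 3 reads, and with KPC1, at 5, 1, 2 and 8 reads. The edgeR log2 fold changes were −2.85 (SE 0.64, adjusted p = 4.4e-04), −2.19 (SE 0.595, adjusted p = 2.2e-03) and −2.01 (SE 0.591, adjusted p = 4.2e-03). At so few reads the ratio of summed counts is shown with its exact 95% interval, which covers counting error only. It was 0.129 (0.0565 to 0.259) with clone T, 0.206 (0.109 to 0.363) with clone V and 0.239 (0.129 to 0.416) with KPC1. With the other clones the fold change lay between −1.28 and −0.59 and was not called. Leaving out replicate 4 of clone E or replicate 3 of mono-culture brought clone E under the threshold (adjusted p = 0.0242 and 0.041), and leaving out replicate 4 of clone H did so for clone H (adjusted p = 0.0285). For clone N this happened without its own replicate 3 or replicate 3 of mono-culture (adjusted p = 0.0416 and 0.0414). The F-test among clones gave an adjusted p of 0.038 for Meg3.

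Peg3, a large zinc finger protein linked to p53-mediated death and to maternal behaviour, had mono-culture values of 27.5, 29.1, 31.2 and 41.6 CPM. Its lowest co-culture was clone H, at 15.6, 14.1, 12.3 and 14.7 CPM, all below mono-culture (log2 fold change −1.19, SE 0.395, edgeR adjusted p = 0.012). Clone T, at 12.3, 14.7, 22.4 and 18.2 CPM, was also lower (−0.94, SE 0.393, adjusted p = 0.047). That call was at the threshold and was lost in 23 of the 36 fits that left out a library, with adjusted p up to 0.13 without replicate 4 of mono-culture, and without the filter on low counts (0.0984).

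Clone V split: its replicates 1 and 2 had 15.5 and 22.6 CPM of Peg3, below every mono-culture library, and its replicates 3 and 4 had 64.5 and 94.4 CPM, above every other library of the study. The mean of 49.3 ± 37.1 CPM (SD, n = 4) therefore describes none of the 4 libraries, and the log2 fold change of 0.60 (SE 0.384, adjusted p = 0.18) was not called. Without replicate 1 it was 0.90 (adjusted p = 0.0346). Clone V replicates 1 and 4 also bore on other calls, since leaving out either brought Peg3 with clone N (adjusted p = 0.0381 and 0.0438) and with KPC1 (0.0344 and 0.0395) under the threshold. The difference with KPC1, of −0.85 in the fit to all libraries (adjusted p = 0.063), also passed without replicate 1 of clone E (0.0499) or replicate 3 of KPC1 (0.034), with scaling by library size alone (0.0403) and with at least 10 counts required in every library (0.0484). The F-test among the clones gave an adjusted p of 1.8e-03.

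H19 is a noncoding RNA that is abundant in the fetus, restrains growth and carries the miR-675 hairpin printed above. Its mono-culture libraries held 78, 32, 31 and 68 reads, or 4.29, 1.76, 2.36 and 3.11 CPM. With clone V they held 2984, 3752, 1218 and 1860 reads, or 152, 181, 66.4 and 111 CPM. The clone V mean of 127.5 ± 49.7 CPM was 44.3 times that of mono-culture, and its lowest library was above the highest of every other group. With clone H the libraries had 11.6, 20.96, 10.99 and 32.5 CPM, also above mono-culture.

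Clone E libraries were uneven, at 24.8 and 20.7 CPM of H19 in replicates 1 and 4 and at 2.59 and 5.28 CPM in replicates 2 and 3, and so overlapped mono-culture. Clone N libraries had 13.1, 2.27, 6.04 and 9.19 CPM and clone T libraries 0.618, 6.70, 1.91 and 4.43 CPM. Clone M libraries had 1.30, 3.83, 1.66 and 2.69 CPM. Clone K had the least H19, with 47 reads (2.22 CPM) in replicate 1 and 6 reads in each of the other 3 libraries (0.27 to 0.39 CPM). From high to low the means ran V, H, E, KPC1, N, T, mono-culture, M, K, and apart from the step between V and H each neighbouring pair of ranges overlapped.

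H19 was tested only between KPC1 and mono-culture, a contrast outside the pattern it was chosen for. The KPC1 libraries had 6.12, 11.8, 12.7 and 13.9 CPM, all above the 4 of mono-culture. The log2 fold change was 1.93 (SE 0.649, edgeR adjusted p = 0.012), where 30.5% of all genes tested were called higher. It kept its call in each of the 36 fits that left out a library, at 1.76 to 2.18.

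Igf2 encodes the fetal growth factor that signals through the IGF1 and insulin receptors, and in the embryo it shares enhancers with H19. It was at the low end of detection in mono-culture, with 11, 14, 5 and 8 reads (0.606, 0.77, 0.38 and 0.366 CPM). Clone V libraries held 74, 144, 54 and 66 reads (3.76, 6.93, 2.94 and 3.95 CPM) and clone N libraries 58, 23, 28 and 41 reads (2.87, 1.25, 1.88 and 2.33 CPM). Both ranges lay above that of mono-culture, and clone V also lay above clone N. Clone T had the fewest reads, 1 in replicate 1 and 13, 6 and 10 in the others.

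The rise of Igf2 was 3.03 on the log2 scale with clone V (SE 0.456, edgeR adjusted p = 1.4e-06) and 1.95 with clone N (SE 0.457, adjusted p = 9.8e-04). It was 1.26 with clone E (SE 0.463, adjusted p = 0.036), whose 42, 19, 11 and 24 reads overlapped mono-culture. The clone E call was lost without replicate 1 (adjusted p = 0.157) or 4 (0.0769) of clone E, or replicate 1 (0.0606), 3 (0.0867) or 4 (0.11) of mono-culture. With clone H the difference was 0.94 (SE 0.466, adjusted p = 0.087) and with KPC1 0.80 (SE 0.474, adjusted p = 0.15). For the mean of the 7 clones it was 1.04 (SE 0.381, adjusted p = 0.023), a call that was lost without replicate 3 (0.075) or 4 (0.1) of mono-culture. The clones differed among themselves (F-test, adjusted p = 1.8e-07). Genes on both strands overlap Igf2 exons, as given above, so these reads may include theirs or lack reads shared with them.

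**Figure D3:**
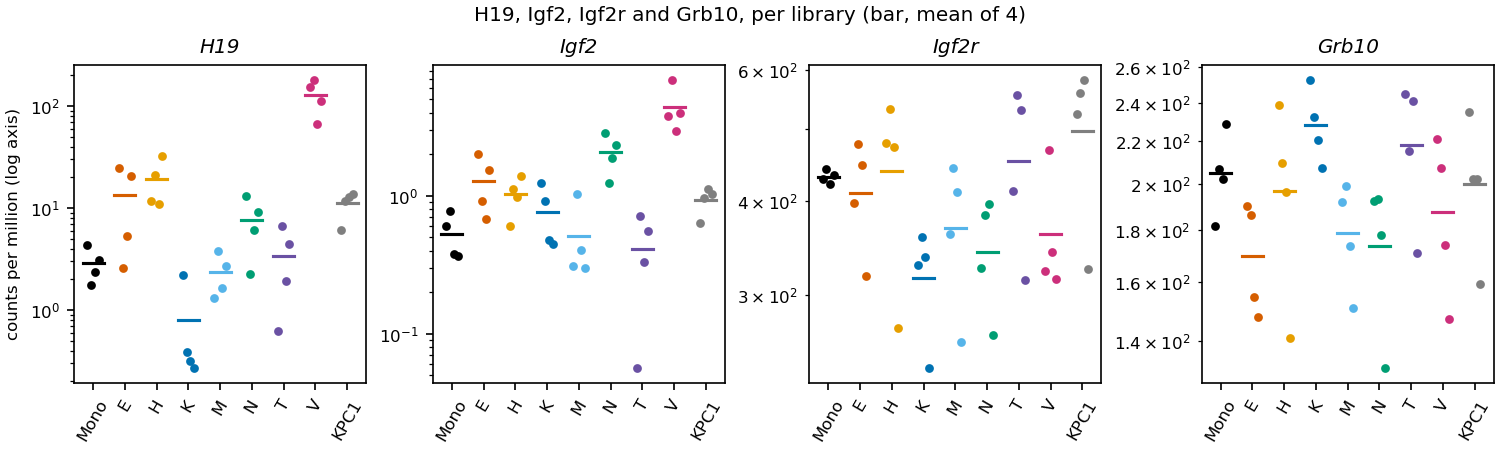
CPM (log axes, a separate scale in each panel) of H19, Igf2, Igf2r and Grb10 in each of the 36 libraries; each point is a library, each bar the mean of 4, and Mono stands for mono-culture. The 4 clone V points are the highest of all for H19 (66.4 to 181 CPM), and the lowest point of every co-culture for Igf2r and Grb10 is a replicate 4 library.

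Of 11695 genes compared with Igf2, H19 had the highest Pearson r in log2 CPM over the 36 libraries, 0.783. The pair did not keep a fixed proportion. In mono-culture there were 2.29 to 8.50 H19 reads per Igf2 read, with clone V 22.6 to 40.3, and with clone K 0.429 to 1.81. Clone H had a higher mean of H19 than clone N and a lower mean of Igf2, with 11.2 to 23.3 H19 reads per Igf2 read against 1.83 to 4.55. The libraries of clone E that were high in H19, replicates 1 and 4, were also its highest in Igf2.

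Because the fibroblasts were sorted away from GFP-positive tumour cells, RNA of epithelial genes was followed in each library. The summed CPM of 11 epithelial markers was 1.06 to 1.82 in mono-culture and 18.5 to 802 in the co-cultures, and 5 of the 7 markers that could be tested were called higher in the mean of the clones and 0 lower. Epcam was at 0 with clones E, H, T and V and Cldn4 in every group but clone T. Clone V, highest in H19 and Igf2, had the lowest median sum of the co-cultures, 79.7 CPM, with 35.9, 28.9, 123 and 215 CPM in its 4 libraries. Its pair of libraries with the smallest epithelial sums, replicates 1 and 2, had the most H19. Clones N and T had the largest sums, 435 to 673 and 288 to 802 CPM. The tumour lines were not sequenced here, so whether they express H19 or Igf2 cannot be read from these libraries, and the part of tumour RNA in these results was not tested.

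**Figure D4:**
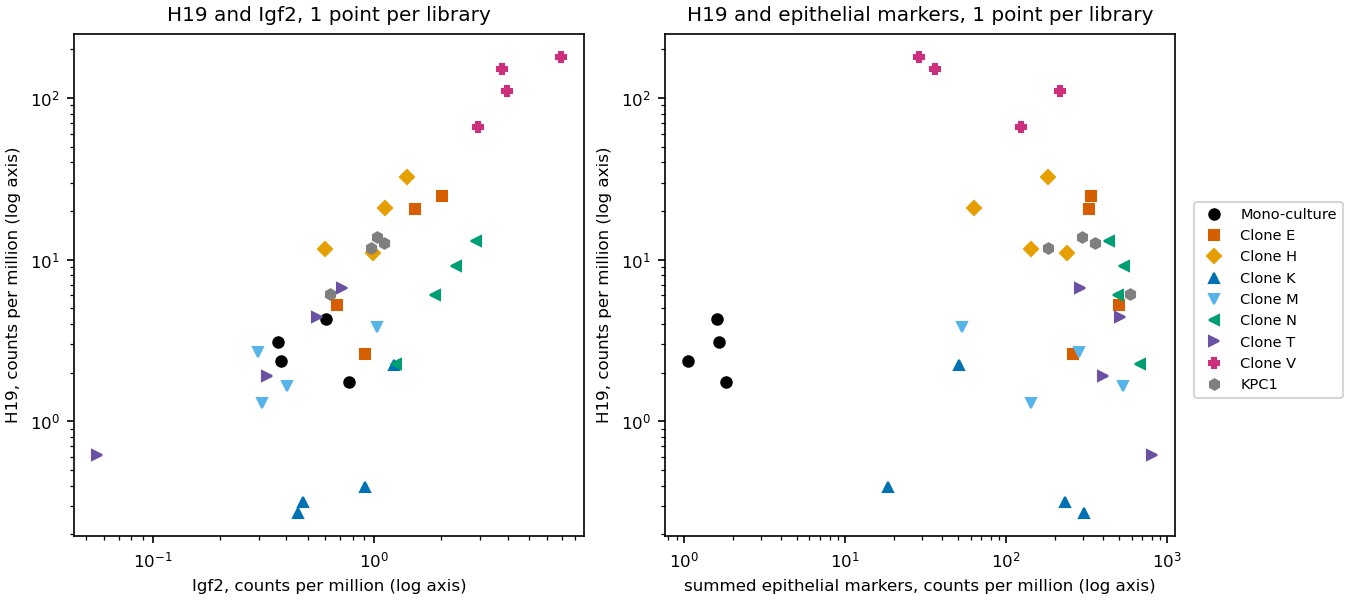
H19 CPM of each library against Igf2 CPM (left) and against the summed CPM of 11 epithelial markers (right), all axes log scaled, 1 point per library with a symbol and colour for each group. On the left the 4 clone V libraries stand at the upper right; on the right they stand above all others at epithelial sums of 28.9 to 215 CPM, below those of every clone N and clone T library.

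The fibroblast identity of the libraries was checked on 9 markers, all of which were detected in every group. Their summed level was 21239 to 23092 CPM in mono-culture, and it lay wholly below that range with clone H (15104 to 19176 CPM), clone T (16532 to 18288 CPM) and KPC1 (12754 to 16408 CPM). With clone V it was 10884 to 21582 CPM, overlapping mono-culture, and among clones E, K, M and N the highest library of each group reached 26131 to 32040 CPM. The sum mainly follows Col1a1, Col1a2 and Col3a1, whose mono-culture means were 7268, 5622 and 5168 CPM. With KPC1 these collagens had their lowest means of the 9 groups and Vim its highest, 3566 CPM. Of the 9, Pdgfrb and Thy1 were called higher and Pdgfra and Lum lower in the mean of the clones. Leukocyte markers summed to 1.06 to 15.4 CPM, with Cd3e at 0 in every group, endothelial markers to at most 5.73 CPM and acinar markers to at most 10.4 CPM. In such bulk libraries fewer cells of a type and less RNA per cell cannot be told apart, and the part of these shifts in the results above was not tested.

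Igf2r, which clears IGF2 from the cell surface and carries lysosomal enzymes, and Grb10, an adaptor that damps insulin and IGF1 receptor signalling, were the most abundant of the 10 per length and the most even. Igf2r had 428, 442, 422 and 434 CPM in mono-culture, and the group means ran from 316 ± 52.7 CPM with clone K to 496.9 ± 117 CPM with KPC1 (SD, n = 4), a ratio of 1.57. All libraries of clone K (239 to 359 CPM) and of clone N (265 to 396 CPM) lay below the mono-culture range. The fold change was not called against mono-culture in any co-culture (−0.45 with clone K, adjusted p = 0.13, to 0.20 with KPC1, adjusted p = 0.40), and the F-test among the clones missed the threshold (adjusted p = 0.18). With scaling by library size alone, Igf2r with clone K passed, at −0.51 (adjusted p = 0.0498). Between KPC1 and the mean of the clones Igf2r was called higher (0.38, SE 0.149, edgeR adjusted p = 0.04). This call was lost without replicate 1, 2 or 3 of KPC1 (adjusted p = 0.121, 0.141 and 0.177) and without the filter on low counts (0.0584).

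Grb10 had 182, 207, 202 and 229 CPM in mono-culture and group means of 169.7 ± 21.5 CPM with clone E to 228 ± 19.4 CPM with clone K. Its fold changes against mono-culture, −0.27 to 0.16, were not called, with SE of about 0.149. The F-test among the clones missed the threshold (adjusted p = 0.066). For both genes the replicate 4 library was the lowest of its group in 8 of 8 co-cultures, for example 271 CPM of Igf2r with clone H beside 473 to 532 CPM in the other 3 libraries. In mono-culture, replicate 4 was the highest for Grb10. In the library names, replicate 1 of the co-cultures has numbers 1 to 8, replicate 4 has 25 to 32 and mono-culture has 33 to 36. What a replicate or library number marks is not stated. Any effect of that order cannot be told apart from co-culture, since no mono-culture library is numbered among the co-cultures.

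KPC1 was also set against the mean of the 7 clones. Of the 9 genes, 4 were called, Igf2r higher and Cdkn1c, Dlk1 and Plagl1 lower, where 41.1% of all genes were called, 22.3% higher and 18.8% lower. Among the 7 clones, 7 of the 9 differed by the F-test, all but Igf2r and Grb10, where 67.5% of all genes did. That count fell to 6, with Meg3 lost, without replicate 1, 3 or 4 of clone M, replicate 1, 2 or 3 of clone T or replicate 2 of clone V, and rose to 9 without replicate 4 of clone H. These comparisons share the mono-culture libraries or the clones and are not independent of each other.

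The genes closest to each member were sought among those with a mean of at least 2 CPM, by Pearson r of log2 CPM over the 36 libraries. For H19 they were Tmem128 (r = 0.865), Casp4 (0.845), Fam111a (0.844), Cenpi (0.83) and Sephs2 (0.824). Casp4, an inflammatory caspase, had 15.5 ± 1.73 CPM with clone V and 1.99 ± 1.12 CPM with clone K, but 16.1 ± 3.82 CPM with KPC1, where H19 was much lower than with clone V. For Plagl1 they were Fgd4 (0.948) and Slc24a3 (0.946), and Slc24a3, a sodium, potassium and calcium exchanger, was also first for Cdkn1c (0.926). Slc24a3 had 76.2 ± 11.3 CPM without tumour cells and 1.82 ± 0.474 CPM beside KPC1 (SD, n = 4). For Dlk1 they were Ldb2 (0.909) and Susd2 (0.905), and for Mest, Cdkn1c (0.823) and Gga2 (0.785). After H19, Spcs3 (0.767) was next for Igf2. The closest to Igf2r was Dync1h1 (0.833) and to Grb10 Cdc42bpa (0.771). Peg3 (Ccbe1, 0.649) and Meg3 (Parp3, 0.745) had no gene as close.

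Imprinted genes outside the 10 were described from a list of 33, of which 30 were in the table and 18 could be tested. In the mean of the 7 clones against mono-culture 2 were higher, 7 lower and 9 not called, with a median log2 fold change of −0.134 beside 0.00578 over all genes. Over all genes tested 49.2% were called in this comparison, 24.3% higher and 24.9% lower, so the share called in the list, 9 of 18, was near the background. The 2 that rose were H13, a signal peptide peptidase (175 to 256 CPM, log2 fold change 0.53, SE 0.0961, edgeR adjusted p = 3.3e-05), and Inpp5f, a phosphoinositide phosphatase (19.6 to 27.9 CPM, 0.51, SE 0.0758, adjusted p = 2.0e-06). Slc38a4, an amino acid transporter, fell the most of those above 2 CPM, from 7.28 to 2.45 CPM (−1.83, SE 0.198, adjusted p = 7.0e-09). Peg10, a retrotransposon-derived gene, fell from 122 to 64.1 CPM (−1.01, SE 0.128, adjusted p = 1.6e-07). The other 5 that fell were Ndn, Sgce, Rian, Rtl1 and Dio3.

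Rian, Rtl1 and Dio3 belong to the same imprinted domain as Dlk1 and Meg3, and are named although they were below the 2 CPM limit, after their values were seen. Mean mono-culture levels were 1.12 CPM for Rian, 2.04 CPM for Rtl1 and 0.843 CPM for Dio3. Rtl1 and Dio3 each had a co-culture group with no read in any library. In the mean of the clones the levels were 0.385 CPM for Rian, 0.187 CPM for Rtl1 and 0.29 CPM for Dio3. All 3 were highest in mono-culture, and genes this low pass a filter on low counts more easily when 1 group is high, so their calls are no support for a change of the domain as a whole. Mirg, of the same domain, had at most 11 reads and was not tested. Its mean level was highest beside clone K, at 0.385 CPM, with 0.322 CPM in mono-culture.

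**Figure D5:**
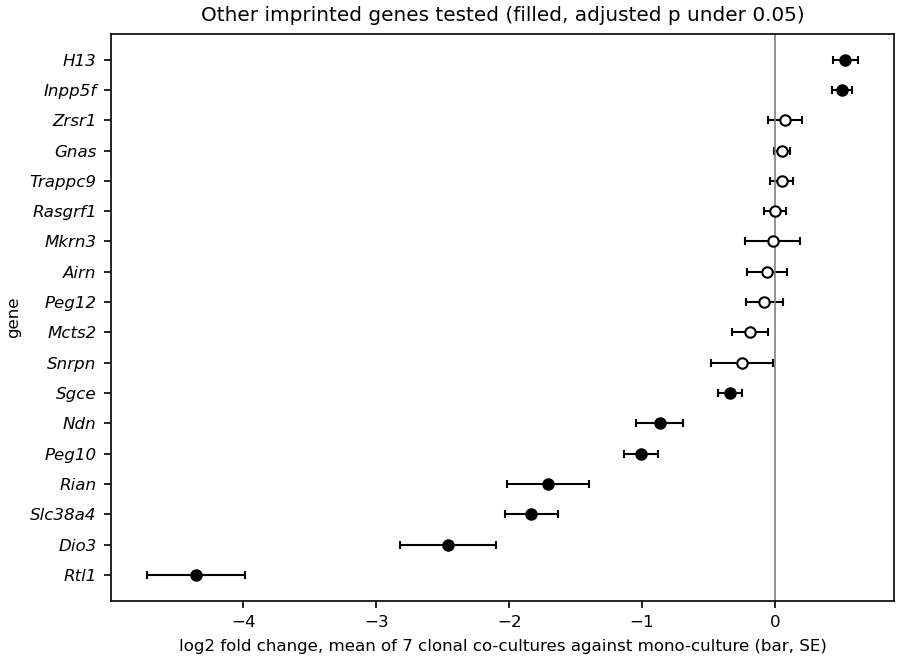
Log2 fold change of the 18 other imprinted genes that could be tested, mean of the 7 clonal co-cultures against mono-culture, with bars for the SE; filled points have an adjusted p under 0.05 and the vertical line marks no change. H13 and Inpp5f lie to the right of the line and 7 filled points to the left, of which Rtl1, with at most 53 reads in a library, lies farthest.

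Genes through which IGF2 acts, or that bind its messenger, were described from a list of 11. In the mean of the clones 6 were called higher, 1 lower and 4 not, where 24.3% of all genes were higher and 24.9% lower, and the median log2 fold change was 0.16. Igf2bp1, which binds Igf2 and H19 RNA, rose from 32.6 to 45.9 CPM (0.48, SE 0.0862, edgeR adjusted p = 2.8e-05), and the receptor substrate Irs1 rose from 73.7 to 104 CPM (0.47, SE 0.146, adjusted p = 7.6e-03). Pik3r1, the regulatory subunit of PI3-kinase, was the gene that fell, by 0.40 (SE 0.129, adjusted p = 9.8e-03), with its lowest mean beside clone V (30.3 CPM) and its highest beside clone K (100.5 CPM).

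Factors that maintain imprints were described from a list of 9, of which 8 could be tested. Of these, 1 was higher and 4 lower in the mean of the clones, beside 24.3% higher and 24.9% lower over all genes, with a median log2 fold change of −0.205. Dnmt3a, a de novo DNA methyltransferase, rose from 45.1 to 58.3 CPM (0.36, SE 0.0972, edgeR adjusted p = 2.6e-03). Uhrf1, which brings Dnmt1 to replicating DNA, fell from 235 to 159.7 CPM (−0.57, SE 0.0963, adjusted p = 1.2e-05), and Trim28, the corepressor at imprinting control regions, fell from 261 to 200.5 CPM (−0.39, SE 0.0573, adjusted p = 1.3e-06). Ctcf and Dnmt3b were also lower, Dnmt1 was not called (−0.03, adjusted p = 0.84), and Dppa3 had no reads in any library.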

How the data were processed

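Poly(A) RNA of the sorted fibroblasts was made into libraries with a strand-specific kit from 200 ng of input and 14 PCR cycles, then sequenced in pairs of 76 bases. Per gene, the authors deposited raw counts of reads, whole numbers with no scaling, and RPKM, in which counts are divided by gene length and library total. The submitters' processing notes name STAR, featureCounts, edgeR and mm10, without versions. The accompanying publication does not describe this co-culture, so tests follow common practice for counts.

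Counts were filtered with filterByExpr, scaled by TMM and fitted in edgeR 4.0.16 (R 4.3.3) with a coefficient for each of the 9 groups (robust quasi-likelihood F-tests, Benjamini-Hochberg adjustment over 14439 genes, threshold 0.05). SE were derived from the fold change and F. Log2 CPM used a prior count of 1. Floors and intervals cover counting error only. Tests were repeated with DESeq2 1.42.0, with scaling by RLE or by library size alone, without the filter or with a minimum of 10 counts per library, with the replicate number as a block, and with each library left out. On simulated counts for KPC1 against mono-culture (14439 genes, 100 changed at each size), edgeR recovered 73% of 2-fold and 90% of 4-fold changes, with 6 false calls. No library pair of a group agreed within sampling noise (lowest chi-square per degree of freedom 5.53 over 54 pairs).

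The members, gene lists and alternatives were chosen with earlier results of these data known. Named genes were the members, the 5 genes most like H19 and the 2 most like each other member (mean of at least 2 CPM), and from each list the 2 highest and 2 lowest among those called in the mean of the clones. Protein sequences, and promoter windows of H19 and Cdkn1c, were not used here.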

Additional observations from a re-analysis of the deposited data

Results flagged for a closer look

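Of 99 sets of 4 libraries examined (each of the 10 genes and the epithelial marker sum in each group), 7 held a library set apart from the other 3 by more than Dixon's 95% value, where chance alone gives about 1 in 20 sets, or 4.95. In clone K, replicate 1 had 2.22 CPM of H19 beside 0.27 to 0.39 CPM (gap over range 0.938). In clone M, replicate 2 was high for Igf2 (1.03 beside 0.298 to 0.401 CPM, 0.86), Peg3 (36.9 beside 24.2 to 26.4 CPM, 0.832) and Plagl1 (43.3 beside 20.6 to 23.4 CPM, 0.877). In clone H, replicate 4 was high for Cdkn1c (3.32 beside 1.14 to 1.41 CPM, 0.873) and Meg3 (1.05 beside 0.299 to 0.361 CPM, 0.917). In mono-culture, replicate 3 was low for Cdkn1c (16.5 beside 20.02 to 20.5 CPM, 0.888). The calls of Cdkn1c and Plagl1 against mono-culture held without any of these libraries.

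The change from mono-culture differed between the 7 clones, by the F-test of edgeR on the clone coefficients, for 7 genes. The adjusted p was 1.8e-07 for Igf2, 9.7e-07 for Dlk1, 1.3e-05 for Plagl1, 1.4e-05 for Cdkn1c, 9.9e-04 for Mest, 1.8e-03 for Peg3 and 3.8e-02 for Meg3. For Peg3 the clone V libraries themselves were split, at 15.5 and 22.6 CPM against 64.5 and 94.4 CPM.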

How the results depend on the processing

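DESeq2, RLE scaling, no scaling and no filter changed no count of called genes by over 1.5 times. Requiring at least 10 counts in every library left out H19, Igf2, Meg3 and Mest, so H19 with KPC1 has no value there, and gave 2 called genes for clone E, 3 each for clones N and V and for the mean of the clones, and 4 among the clones. With scaling by library size alone the median log2 fold change of all genes against mono-culture was −0.0834 to −0.0207, beside −0.00898 to 0.0116 with TMM. Replicate numbers do not establish pairs: in 0 of 8 comparisons with mono-culture did every pair of same-numbered libraries correlate above 0.1 (r −0.582 to 0.461), and between co-cultures in 3 of 28 (−0.519 to 0.693), where every library correlated best with its own number. The replicate block raised the count for clone N to 8, adding Igf2r, Grb10 and Peg3, and called Igf2r lower with clones K and V and in the mean of the clones, Meg3 and Grb10 lower with clone E and Peg3 lower with KPC1.

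Leaving out a library gave 3 to 4 called genes for clone E, 5 to 6 for H, 3 in every fit for K, 3 to 4 for M, 5 to 6 for N, 5 to 6 for T, 6 to 7 for V, 5 to 6 for KPC1, 5 to 6 for the mean of the clones, 3 to 4 for KPC1 against that mean and 6 to 9 among the clones, and 1.76 to 2.18 for H19 with KPC1. Of 3750 single-gene values, 3664 kept direction and call, 40 lost the call, 25 gained it and 21 changed sign. The sign changes were in uncalled values near 0. Igf2r with clone H was −0.076 without scaling, −0.014 with at least 10 counts and −0.032 with the block, and Igf2r with clone T −0.013 without scaling. Over fits that left out a library, the ranges crossing 0 were −0.082 to 0.20 for Igf2r with clone H, −0.038 to 0.21 with clone T and −0.14 to 0.023 with clone E, −0.17 to 0.067 for Grb10 with clone H, −0.13 to 0.063 with KPC1 and −0.037 to 0.15 for KPC1 against the clones, −0.37 to 0.045 for Peg3 with clone K, and −0.64 to 0.19 for Igf2 with clone M. For Igf2 with clone T it was −0.75 to 0.00085. Low read counts limit Meg3 and Igf2 most.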
